A study of Homo sapiens with 7 samples.

Results

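The annexin family was examined in prostate carcinoma cells through 10 of its genes, ANXA1 to ANXA8, ANXA10 and ANXA11. They were taken by symbol, and each was read from the transcript cluster, a set of probes for a gene locus, that names it alone. Such a cluster was found for 9 of the 10 genes, among 14232 genes and 22011 clusters in all. ANXA8, which has a near-identical neighbour in ANXA8L1, was the gene without one and was not analysed here.

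Annexins are cytosolic proteins that attach to acidic phospholipids when calcium rises. They share a core of annexin repeats, which holds the calcium sites, and differ in the N-terminal stretch that binds partner proteins. They are known for organizing membranes, for exocytosis and membrane repair, and for roles at the cell surface in plasminogen activation and in the control of inflammation. In prostate carcinoma, lower levels of several annexins, ANXA1 and ANXA2 among them, have been described.

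The groups were 4 arrays of CSC, the CD44+CD24- cells sorted from the prostate carcinoma line DU145, and 3 arrays of the parental DU145 cells, all on Human Exon 1.0 ST arrays. By the methods, CSC were grown as floating spheroids in serum-free medium with EGF, bFGF and insulin, and pools of spheroids were extracted, whereas DU145 cells were adherent and had serum. The sample labels name the sorting but not the spheroids. The paper also describes some damaged, differentiated cells in the spheroids, and CD44+CD24- cells as a part of bulk DU145 cells. Sorting, serum, growth factors, attachment and damaged cells therefore cannot be told apart in any difference between the groups. Both groups derive from 1 cell line. Separate cultures are not named for the arrays of either group, and the p-values then reflect only how far these RNA samples spread, which could be technical. Values are on the log2 scale, so that a difference of 1 is a 2-fold difference, and "called" means that the limma p, adjusted over all clusters by Benjamini-Hochberg, was no higher than 0.05 and the log2 fold change reached 1 in size.

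The median log2 value was 5.88 to 5.91 on the CSC arrays, against 5.77, 5.80 and 5.89 on DU145 arrays 1, 2 and 3. CSC arrays 1 and 4 stood apart from each other on the second principal component, at 44.2 and -37.6. The cells were sorted by surface protein, and that phenotype was not plain in the RNA on these arrays. By Q-PCR, the paper reports similar CD44 mRNA in spheroids and DU145 cells, and less CD24 mRNA in spheroids. CD44 ran from 7.09 to 8.25 in CSC, against 8.62 to 9.39 in DU145 cells (log2 fold change -1.18, adjusted p = 0.128), and CD24 from 8.11 to 9.09 in CSC, against 8.67 to 9.35 in DU145 cells (-0.40, adjusted p = 0.449). Of 4 epithelial markers, CDH1 and EPCAM were called higher in CSC, by 3.32 and 1.92 on the log2 scale. None of 4 leukocyte, 3 endothelial and 4 fibroblast markers was called. Higher on every CSC array than on any DU145 array were 2 leukocyte markers (CD14 and CD68), 1 fibroblast marker (COL1A1) and 0 endothelial markers. Of all clusters 10.8% were so placed, and the other markers of these lists, such as PTPRC, COL3A1 and DCN, overlapped. The part of these markers in the annexin values was not tested. In bulk RNA of this kind, fewer cells that express a gene and less RNA per cell cannot be told apart.

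Upstream sequences are shown for 3 annexin genes that the values below turn on. ANXA11 and ANXA1 were higher on every CSC array than on any DU145 array, and ANXA3 had the most negative log2 fold change of the family. By the RefSeq annotation, ANXA3, ANXA5 and ANXA10 lie on chromosome 4, ANXA7 and ANXA11 on chromosome 10, and ANXA1, ANXA2, ANXA4 and ANXA6 on chromosomes 9, 15, 2 and 5. All 9 genes had at least 1 window in the RefSeq promoter table (GRCh38.p14), and the 250 bases before the outermost start are described. Capitals mark CG dinucleotides and the letters TATAAA.

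ANXA11, chr10:80205809-80206058, minus strand: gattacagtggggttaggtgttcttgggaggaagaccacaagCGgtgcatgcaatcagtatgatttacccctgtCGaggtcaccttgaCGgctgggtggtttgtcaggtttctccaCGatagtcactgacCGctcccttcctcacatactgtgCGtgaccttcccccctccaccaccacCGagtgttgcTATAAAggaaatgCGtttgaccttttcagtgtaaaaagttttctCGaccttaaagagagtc
ANXA1, chr9:73151615-73151864, plus strand: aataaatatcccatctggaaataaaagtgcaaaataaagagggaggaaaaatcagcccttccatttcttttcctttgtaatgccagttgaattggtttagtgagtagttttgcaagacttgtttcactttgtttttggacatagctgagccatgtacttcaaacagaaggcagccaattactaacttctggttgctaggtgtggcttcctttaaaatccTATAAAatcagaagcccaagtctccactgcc
ANXA3, chr4:78551520-78551769, plus strand: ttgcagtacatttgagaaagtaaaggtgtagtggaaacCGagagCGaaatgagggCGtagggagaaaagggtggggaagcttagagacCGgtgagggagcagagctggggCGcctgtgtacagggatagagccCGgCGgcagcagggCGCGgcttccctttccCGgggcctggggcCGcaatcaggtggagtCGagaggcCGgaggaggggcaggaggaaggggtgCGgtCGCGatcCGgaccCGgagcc

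The members differed widely in base composition upstream. The ANXA1 and ANXA10 windows held 0 CG dinucleotides, that of ANXA11 held 9, and those of ANXA3, ANXA6 and ANXA7 held 18, 19 and 20. The windows of ANXA2, ANXA5 and ANXA4 held 28, 31 and 36, where the median over all 35116 windows of this length was 11. The letters TATAAA, read on both strands, were in 4 of the 9 annexin windows (ANXA1, ANXA2, ANXA10 and ANXA11) and in 10.7% of all windows. The letters GGGCGG, read on both strands, were in 5 of the 9 (ANXA2, ANXA4, ANXA5, ANXA6 and ANXA7) and in 42.6% of all windows. The letters CCAAT, read on both strands, were in 3 of the 9 (ANXA1, ANXA6 and ANXA7) and in 32% of all windows. ANXA11 has 3 windows in the table, and the 2 inner ones, with 22 and 5 CG dinucleotides, are unlike the one shown. The shares and the median over all windows include inner starts, whereas the annexin counts use only the outermost start of each gene. A match is a description of these letters only, and the arrays do not say which start was used.

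No annexin gene was called in CSC against DU145 cells. By limma, 0 of the 9 passed, where 1.30% of all clusters did, and 0 of the 9 had an adjusted p of at most 0.05 at any fold, where 2.04% of all clusters had. At an unadjusted p of at most 0.05 there were 3 (ANXA1, ANXA7 and ANXA11), where 19.7% of all clusters were. The mean was higher in CSC for 7 genes and lower for ANXA3 and ANXA6, and the median log2 fold change was 0.14 over the 9, beside 0.08 for all clusters and 0.10 for all genes. Without DU145 array 2 the median of the 9 was 0.05. The CSC arrays lay above all DU145 arrays for 2 of the 9 genes (ANXA1 and ANXA11), where 10.8% of all clusters did so, and below all of them for 0, where 6.13% did. In either direction 16.9% of all clusters did not overlap. Missing the threshold does not show that the levels were alike, so intervals are given for each gene.

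**Figure D1:**
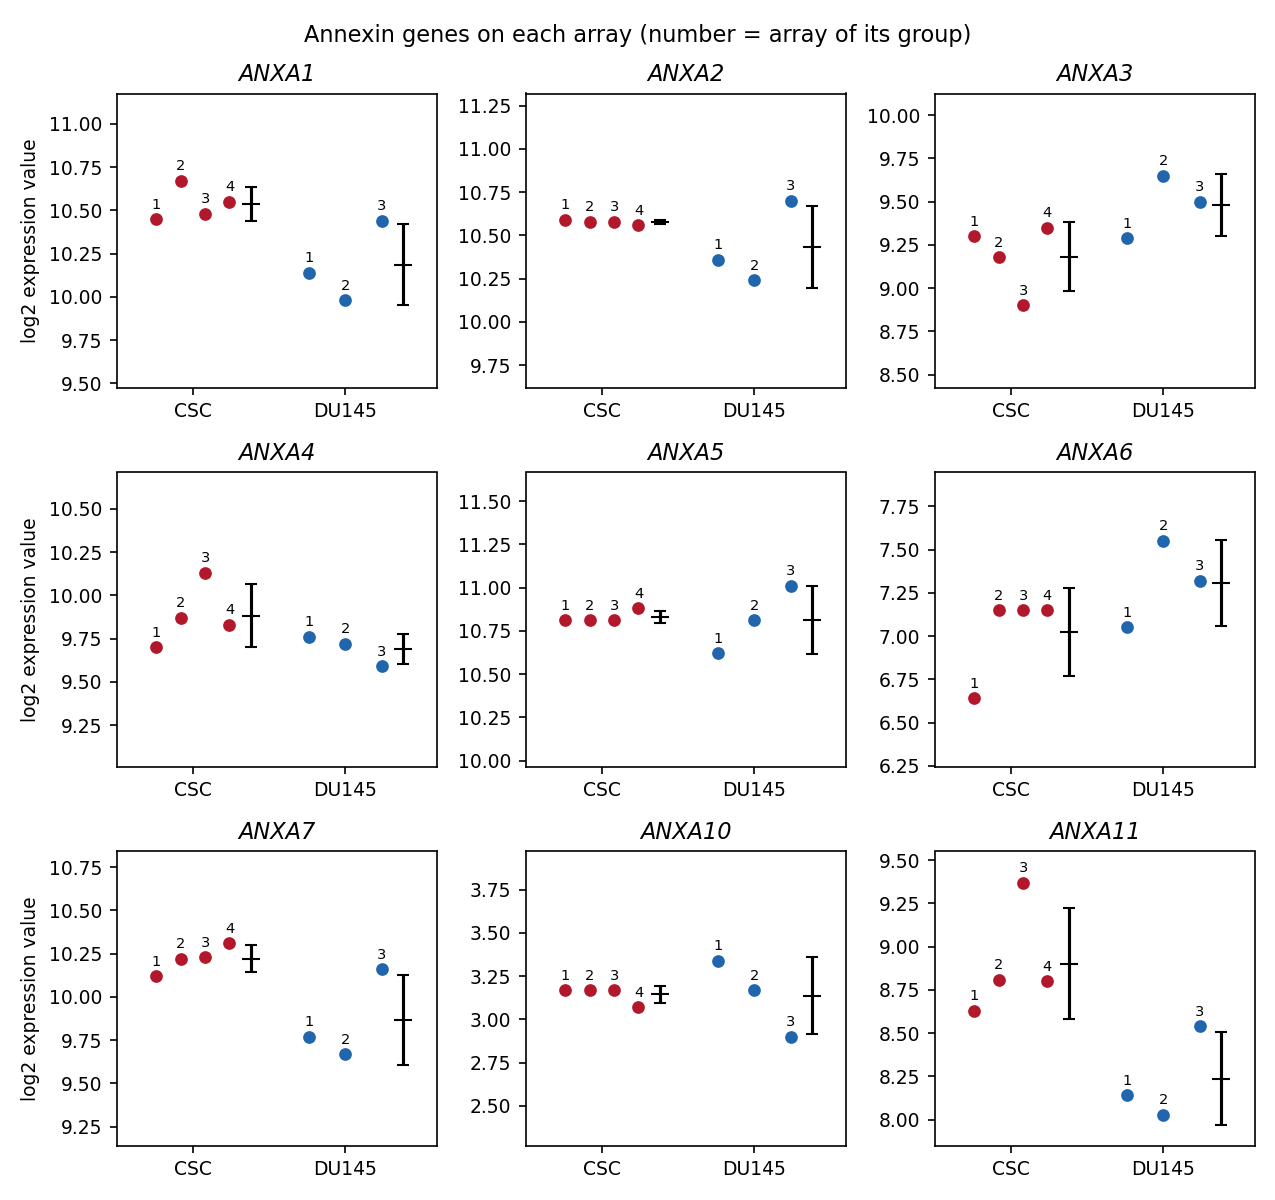
Log2 expression value (vertical axis, a span of 1.7 in every panel) of 9 annexin genes on each CSC (red) and DU145 (blue) array, numbered by array, with the mean and SD of each group as black bars. ANXA1 and ANXA11 are higher on every CSC array than on any DU145 array, and DU145 array 3 is the highest of its group for 5 genes.

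ANXA11, an annexin with a long proline-rich N-terminus that binds S100A6 and the calcium sensor PDCD6, had the largest difference. Its log2 value was 8.63, 8.81, 9.37 and 8.80 on CSC arrays 1 to 4, against 8.14, 8.03 and 8.54 on DU145 arrays 1 to 3. The lowest CSC array lay above the highest DU145 array by 0.09, and CSC array 3 stood highest of all. The mean was 8.90 ± 0.32 (SD, n = 4) in CSC and 8.24 ± 0.27 (SD, n = 3) in DU145 cells, a log2 fold change of 0.67 or 1.59-fold (standard error 0.21, 95% interval 0.16 to 1.18, adjusted p = 0.165 from limma). Over all 35 ways to split the arrays, an exact permutation test (two-sided) gave p = 0.0286, the smallest p possible here. An absolute change larger than that of ANXA11 was seen in 11.7% of all clusters. Without CSC array 3 the log2 fold change was 0.51 (adjusted p = 0.209), and without DU145 array 3 it was 0.82 (adjusted p = 0.141).

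ANXA1, a glucocorticoid-induced protein that acts on formyl peptide receptors and restrains phospholipase A2, was 10.45, 10.67, 10.48 and 10.55 in CSC, against 10.14, 9.98 and 10.44 in DU145 cells. The groups did not overlap, but the gap between the lowest CSC array and DU145 array 3 was only 0.01. The log2 fold change was 0.35 (standard error 0.12, 95% interval 0.05 to 0.65, adjusted p = 0.197 from limma, exact permutation p = 0.0286). ANXA7, known as synexin, which promotes fusion of secretory membranes, was 10.12, 10.22, 10.23 and 10.31 in CSC, against 9.77, 9.67 and 10.16 in DU145 cells. CSC array 1 lay just below DU145 array 3, so the groups overlapped. Its log2 fold change was 0.36 (standard error 0.13, 95% interval 0.05 to 0.67, adjusted p = 0.209 from limma, exact permutation p = 0.0571).

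ANXA2 forms a complex with S100A10 that binds plasminogen and its activator at the cell surface. Its value was nearly constant in CSC, at 10.59, 10.58, 10.58 and 10.56, and spread over 10.36, 10.24 and 10.70 in DU145 cells. The DU145 arrays thus lay on both sides of the CSC arrays. The log2 fold change was 0.14 (standard error 0.11, 95% interval -0.13 to 0.42, adjusted p = 0.505 from limma), and the SD was 0.01 (n = 4) in CSC and 0.24 (n = 3) in DU145 cells. Without DU145 array 2 the log2 fold change of ANXA2 was 0.05, and without DU145 array 3 it was 0.28. ANXA4, an annexin of epithelial cells that forms lattices on membranes, was 9.70, 9.87, 10.13 and 9.83 in CSC, against 9.76, 9.72 and 9.59 in DU145 cells. CSC array 1 was the array that kept the groups from separating. The log2 fold change was 0.19 (standard error 0.11, 95% interval -0.08 to 0.46, adjusted p = 0.398 from limma), and 0.11 without CSC array 3.

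ANXA3 and ANXA6 were the members with a lower mean in CSC. ANXA3, known from neutrophil granules, was 9.30, 9.18, 8.90 and 9.35 in CSC, against 9.29, 9.65 and 9.50 in DU145 cells. DU145 array 1 fell among the CSC arrays, and the other two DU145 arrays were above all of them. The log2 fold change was -0.30 (standard error 0.14, 95% interval -0.64 to 0.04, adjusted p = 0.296 from limma, exact permutation p = 0.143). ANXA6, a larger annexin with a duplicated core that organizes membrane domains and endocytosis, was 6.64, 7.15, 7.15 and 7.15 in CSC, against 7.05, 7.55 and 7.32 in DU145 cells. CSC array 1 was the lowest of all arrays. The log2 fold change was -0.28 (standard error 0.18, 95% interval -0.71 to 0.15, adjusted p = 0.418 from limma, exact permutation p = 0.286). It was -0.15 without CSC array 1 and -0.16 without DU145 array 2.

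ANXA5 and ANXA10 had means that were close to equal in both groups. ANXA5, which coats exposed phosphatidylserine and is used to stain dying cells, was 10.81, 10.81, 10.81 and 10.88 in CSC, against 10.62, 10.81 and 11.01 in DU145 cells. The DU145 arrays again spanned the CSC arrays, and the log2 fold change was 0.02 (standard error 0.10, 95% interval -0.22 to 0.26, adjusted p = 0.940 from limma). ANXA10, an atypical annexin of the gastric mucosa that has largely lost its calcium sites, was 3.17, 3.17, 3.17 and 3.07 in CSC, against 3.34, 3.17 and 2.90 in DU145 cells. It was the only member whose mean over all arrays was not above the median of all clusters. Its log2 fold change was 0.0046 (standard error 0.11, 95% interval -0.26 to 0.27, adjusted p = 0.990 from limma). For ANXA5, ANXA6 and ANXA10, 3 or 4 arrays held one and the same value. A value shared by at least 2 arrays occurred in 42.5% of all clusters, and in 98.7% of those the repeated value was the median of the 7 arrays. The SD of these genes therefore rests on few distinct values.

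**Figure D2:**
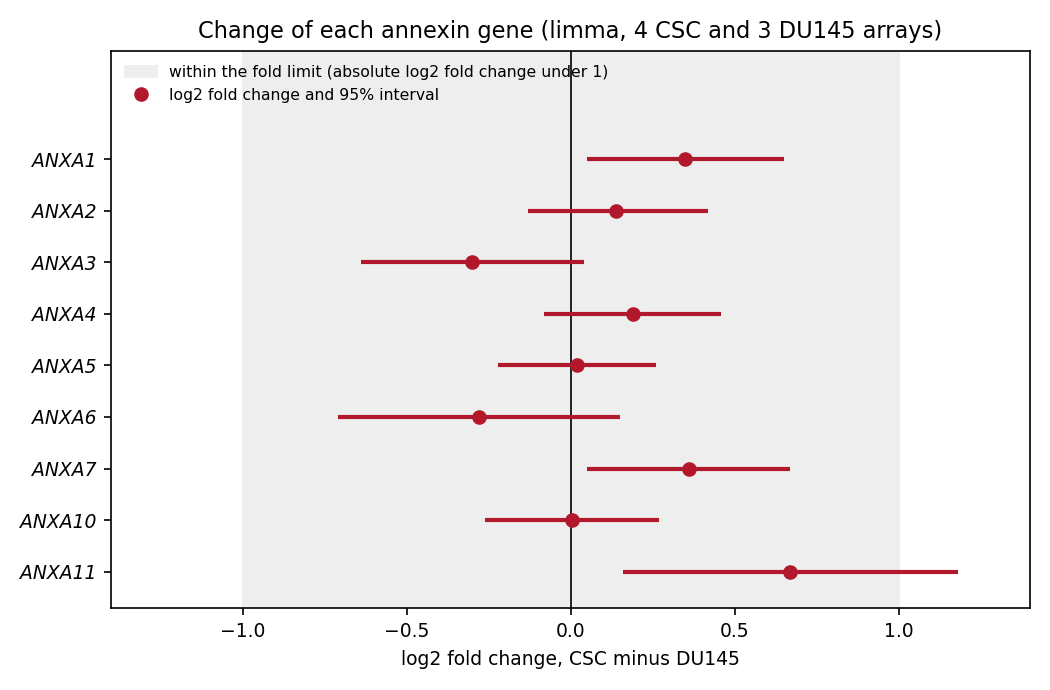
Log2 fold change of each annexin gene (horizontal axis, CSC minus DU145) with its 95% interval from limma, on a grey band that marks absolute changes under 1. The intervals of 8 genes lie inside the band, and that of ANXA11 reaches 1.18.

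The intervals rest on the spread of these RNA samples, which could be technical, and so do not bound the difference between the cell states. For 8 of the 9 genes the 95% interval lay within an absolute log2 fold change of 1, that is, within a 2-fold change either way, and ANXA11 was the exception. The 8 include ANXA5, ANXA6 and ANXA10, in which several arrays held one value, and ANXA10 was also dim. The interval did not include 0 for ANXA1, ANXA7 and ANXA11. These intervals are for single genes and are not adjusted for the number of genes. Several members shared an order of arrays. DU145 array 3 was the highest of its group for ANXA1, ANXA2, ANXA5, ANXA7 and ANXA11, and DU145 array 2 was the lowest for 4 of these, ANXA1, ANXA2, ANXA7 and ANXA11. CSC array 1 was the lowest of its group for ANXA1, ANXA4, ANXA6, ANXA7 and ANXA11. How often all clusters had such orders was not counted, so they are not read as a trait of the annexins. The median of all clusters was also higher on DU145 array 3 than on DU145 arrays 1 and 2. With the medians of the arrays set equal, ANXA1 had a log2 fold change of 0.28, ANXA7 of 0.28, ANXA11 of 0.59, ANXA3 of -0.37 and ANXA6 of -0.36, and none was called. With this scaling the groups did not overlap for 4 of the 9 genes, with the CSC arrays above for ANXA1 and ANXA11 and below for ANXA3 and ANXA6, where 18.8% of all clusters did not overlap in either direction. After a further quantile normalization there were 5 of the 9, with ANXA7 above as well, where 23.9% of all clusters did not overlap.

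Whether annexin genes differed from each other in their change was asked by the difference of 2 genes within each array, which does not depend on the level of an array as a whole. All 36 pairs were compared by exact two-sided permutation tests. The smallest possible p, 0.0286, was reached by 12 pairs, and after Benjamini-Hochberg adjustment over the 36 pairs 0 had an adjusted p of at most 0.05, with 0.0857 as the lowest adjusted value. More pairs than these 12 would have had to reach the smallest p for any pair to pass, so the count of 0 does not show that the genes changed alike. The groups did not overlap in 17 of the 36 pairs. The pairs share genes and arrays, so they are not separate results, and pairs of other genes were not counted beside them. The 12 pairs included every pair that sets ANXA1, ANXA7 or ANXA11 against ANXA3 or ANXA6. ANXA3 minus ANXA11 was 0.66, 0.37, -0.47 and 0.55 in CSC, against 1.15, 1.62 and 0.97 in DU145 cells. The groups did not overlap, and the difference in log2 fold change was -0.97 (exact permutation p = 0.0286, adjusted p = 0.0857). ANXA6 minus ANXA11 was -1.99, -1.66, -2.22 and -1.65 in CSC, against -1.09, -0.48 and -1.22 in DU145 cells, a difference of -0.95 with the same p-values. For ANXA1 and ANXA7, by contrast, the groups overlapped. ANXA1 minus ANXA7 was 0.33, 0.44, 0.26 and 0.23 in CSC, against 0.37, 0.31 and 0.28 in DU145 cells (exact permutation p = 0.943). ANXA3 and ANXA6 were another such pair (exact permutation p = 0.914). These p-values do not show that the genes of a pair changed alike.

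**Figure D3:**
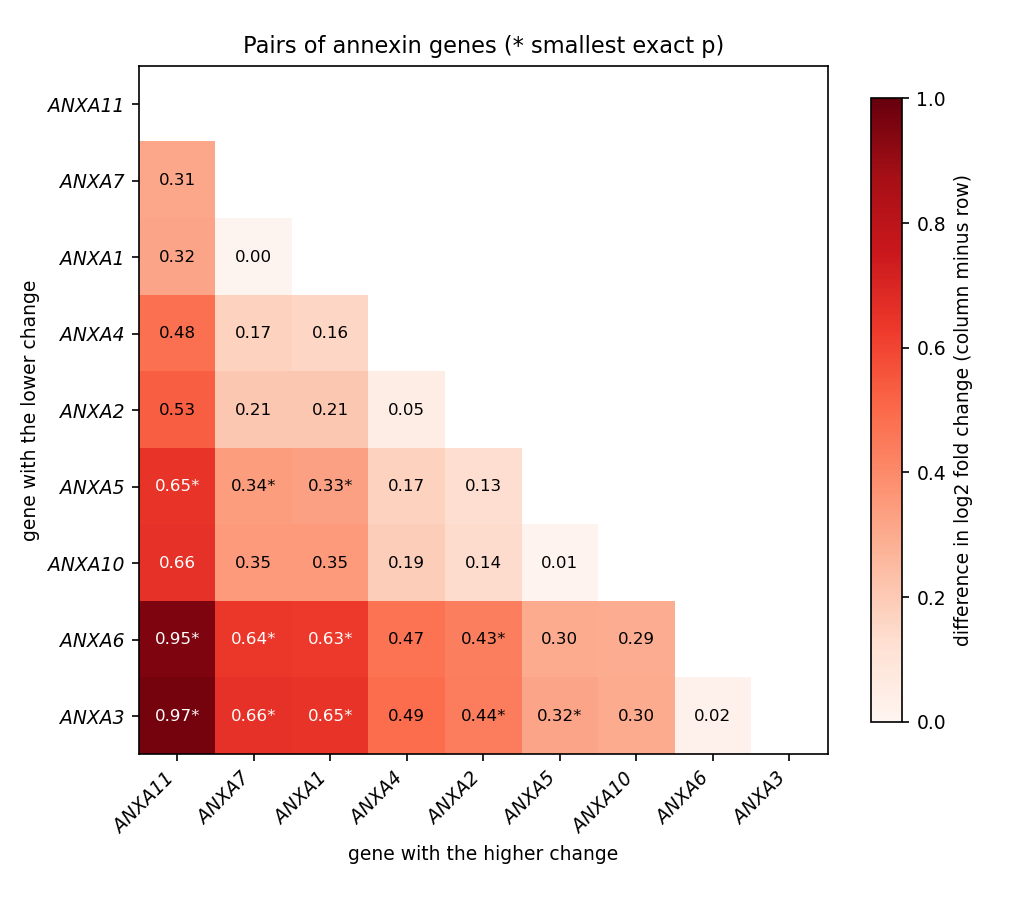
Difference in log2 fold change (CSC minus DU145) between each pair of annexin genes, column gene minus row gene, with genes ordered by their change. Asterisks mark the 12 pairs at the smallest exact p of 0.0286, which lie mostly where ANXA11, ANXA7, ANXA1 and ANXA2 meet ANXA6 and ANXA3.

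No annexin gene was called under any of 18 other processing settings, 17 for ANXA10, which a filter on dim clusters removed in 1. All the log2 fold changes were under the fold limit, so that limit alone gave this result wherever it was kept. The log2 fold change of ANXA11 ran from 0.51 to 0.86 over them, that of ANXA7 from 0.26 to 0.50 and that of ANXA1 from 0.25 to 0.48, and those of ANXA3 and ANXA6 were from -0.44 to -0.21 and from -0.41 to -0.15. The lowest adjusted p of any member was 0.0669, for ANXA7 without DU145 array 3. Of these settings 12 recompute the fold change, and under all of the 12 the sign was the same for 7 genes and not for ANXA5 and ANXA10.

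**Figure D4:**
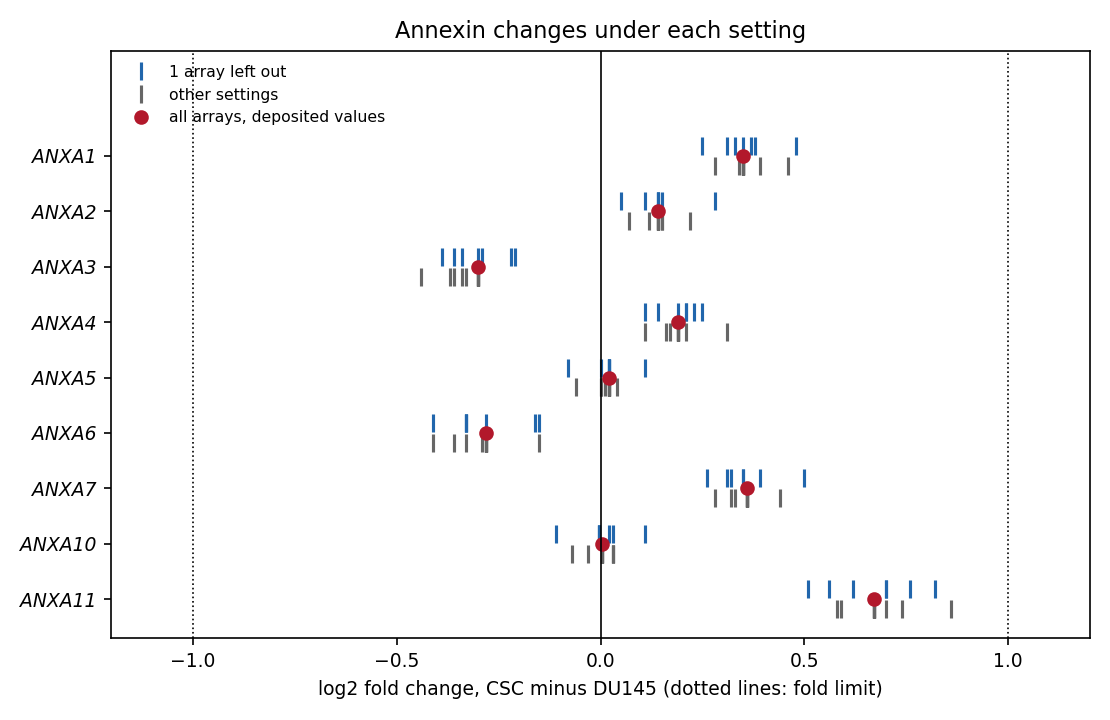
Log2 fold change of each annexin gene (horizontal axis, CSC minus DU145) with all arrays (red), with 1 array left out (blue marks) and under the other settings (grey marks), with the fold limit as dotted lines. No mark reaches the limit, ANXA11 runs from 0.51 to 0.86, and only ANXA5 and ANXA10 have marks on both sides of 0.

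Other clusters that name an annexin or an annexin-related gene were read as clusters. One cluster names ANXA2 together with its processed pseudogene ANXA2P2. It was 8.56, 8.62, 8.92 and 8.49 in CSC, against 8.36, 8.29 and 8.83 in DU145 cells (log2 fold change 0.16, adjusted p = 0.624 from limma), with DU145 array 3 again the highest of its group. The pseudogenes ANXA2P1 and ANXA2P3 had log2 fold changes of -0.16 and -0.15 (adjusted p = 0.703 and 0.806). Because these copies are nearly identical to ANXA2, signal may be split among the clusters, and the ANXA2 values are uncertain to that extent. The cluster shared by ANXA9 and MINDY1 was 5.91, 6.09, 6.09 and 6.46 in CSC, against 5.53, 5.74 and 5.17 in DU145 cells (log2 fold change 0.66, adjusted p = 0.123). Its groups did not overlap, but the value cannot be given to either gene. ANXA2R, a proposed receptor of annexin A2, was 4.97, 5.18, 4.69 and 5.31 in CSC, against 5.42, 5.68 and 5.80 in DU145 cells. All CSC arrays were lower, and the log2 fold change was -0.59 (SE 0.17, adjusted p = 0.140 by limma).

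None of the partners and receptors of annexins was called. Of 15 listed genes 12 were measured, and of these 0 were called higher and 0 lower, and the median log2 fold change was 0.20, beside 0.10 over all genes. The largest differences were those of sorcin (SRI), a calcium-binding partner of ANXA7, of PEF1, a relative of PDCD6, and of S100A11, a partner of ANXA1. SRI averaged 10.53 ± 0.18 (SD, n = 4) in CSC and 10.07 ± 0.07 (SD, n = 3) in DU145 cells. The fold change was 0.47 on the log2 scale (SE 0.11), at an adjusted p of 0.0951 from limma. All CSC arrays were above the DU145 arrays for SRI. S100A11 was 7.23, 7.27, 7.32 and 7.24 in CSC, against 6.70, 6.82 and 7.17 in DU145 cells, with no overlap and a log2 fold change of 0.37 (adjusted p = 0.168). For PEF1 the log2 fold change was 0.40 (adjusted p = 0.228). S100A10, the partner of ANXA2, differed by 0.01 on the log2 scale (SE 0.09, adjusted p = 0.961), and the formyl peptide receptors FPR1, FPR2 and FPR3 had 0.26, 0.13 and -0.14.

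Of 12 listed genes of plasminogen activation and cell-surface coagulation 9 were measured, of which 1 fell, 0 rose and 8 did not pass (median log2 fold change 0.02). SERPINE2, an inhibitor of plasminogen activators and thrombin, was 4.56, 4.52, 4.77 and 5.16 in CSC, against 6.33, 6.25 and 6.51 in DU145 cells. The groups were more than 1 unit apart, and the log2 fold change was -1.61 (standard error 0.17, adjusted p = 0.0151 from limma). In 7 fits that each lacked 1 array, this call held in 3 and was lost without CSC array 2 or any of the DU145 arrays, with log2 fold changes from -1.75 to -1.53. The mean of SERPINE2 over all arrays was not above the median of all clusters, so a filter on dim clusters removed it. The tissue factor gene F3 differed by -0.88 on the log2 scale (adjusted p = 0.154) and thrombomodulin (THBD) by 0.61 (adjusted p = 0.112), and neither passed. PLAT and PLAU, which encode the plasminogen activators, had 0.09 and -0.28, and the urokinase receptor PLAUR had 0.40.

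Of 17 measured membrane repair genes (20 listed), 0 were called (median log2 fold change 0.10). CHMP2A, a subunit of the ESCRT-III complex that closes membrane wounds, was 11.45, 11.33, 11.32 and 11.20 in CSC, against 10.80, 10.72 and 10.70 in DU145 cells. Its adjusted p of 0.0263 from limma was below the threshold, but its log2 fold change of 0.58 (standard error 0.08) was under the fold limit. SMPD1, a lysosomal sphingomyelinase, differed by 0.50 (adjusted p = 0.231) and VPS4A, the ATPase that takes ESCRT-III apart, by 0.39 (adjusted p = 0.196). Of 34 measured C2-domain genes (42 listed), 0 were called (median 0.05). The C2 domain is another fold than that of annexins, and only some C2 domains bind calcium. SYT17, a synaptotagmin, had a log2 difference of 0.79 with an adjusted p of 0.0302, under the fold limit, and SYT11 and SYTL2 had 0.64 and 0.61 (adjusted p = 0.345 and 0.0988). Of 11 measured genes of phosphatidylserine exposure and binding (20 listed), 0 were called (median 0.07), with 0.42 for the scramblase PLSCR1, 0.39 for PLSCR2 and -0.20 for the bridging ligand GAS6, which was -0.09 without DU145 array 3. Of 20 measured phospholipase A2 genes (22 listed), 0 were called (median 0.12), with 0.89 for PLA2G4C, 0.74 for PLA2G10 and -0.53 for PLA2G2D, at adjusted p = 0.272, 0.488 and 0.188. PLA2G10 was 0.41 without CSC array 4 or DU145 array 2, and 1.23 without DU145 array 3. PLA2G4C, PLA2G10 and PLA2G2D were dim, with group means from 3.33 to 4.62, and a filter on dim clusters removed them.

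**Figure D5:**
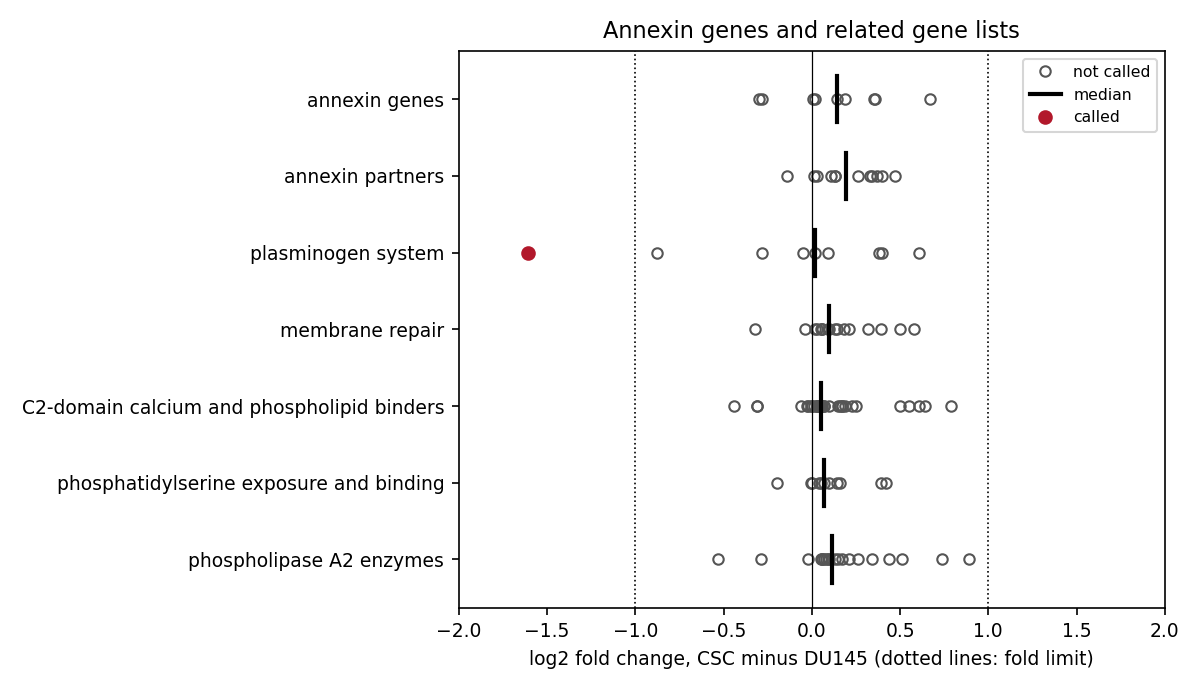
Log2 fold change (horizontal axis, CSC minus DU145) of the annexin genes and of 6 related gene lists, with open circles for genes not called, a filled circle for the 1 called gene, SERPINE2, and a bar at the median of each list. The medians lie between 0.02 and 0.20.

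The genes most like ANXA11 and ANXA3 were found by the root mean square difference of values over the 7 arrays, each gene centred on its own mean. For ANXA11 they were TSPAN14, SLC29A2 and TCN2, at differences of 0.09, 0.10 and 0.11 and with log2 fold changes of 0.58, 0.59 and 0.60. For ANXA3 they were HNRNPH1, BRD9 and CCDC93, at 0.06, 0.07 and 0.07 and with log2 fold changes of -0.24, -0.35 and -0.33. None of these 6 genes was called. Likeness over 7 arrays is a description of these arrays alone.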

How the data were processed

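RNA of 4 CSC and 3 DU145 samples was measured on exon arrays, 1 array per sample. The methods name 3 replicates per condition, but 4 CSC arrays are labelled, and all 4 were kept because the sources do not say which 3 are meant. With oneChannelGUI the authors applied RMA at the gene level and a sketch-quantile normalization, and tested genes by empirical Bayes with a false discovery rate. The deposited table holds log2 values from 0.24 to 13.8 for 22011 transcript clusters. A genome build is not given in the sources used here. The number of arrays limits the precision. A single symbol was attached to 14432 clusters, several symbols to 2408 and no symbol to 5171. The brightest cluster with 1 symbol stood for a gene. Each annexin gene had a single such cluster.

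All arrays entered a limma fit (limma 3.58.1, R 4.3.3) with group as the only term, and p-values were adjusted over all clusters. Every adjusted p is limma's, apart from those of gene pairs. The fit was tested on simulated data. Single values were compared by exact permutation of the arrays. Replicate numbers shared by the groups were not used as pairs. Named were all listed annexins, called genes of each list and otherwise up to 3 with the largest change, the 3 genes nearest in pattern to each of 2 annexins, and other annexin clusters, except 1 that is not reported here. Members and lists were chosen with earlier results of these data known. The alternatives covered thresholds, dim clusters, scaling, moderation, a replicate block, weighting of arrays, arrays left out and an unpaired t-test, which the methods name for their other experiments and not for the arrays.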

Additional observations from a re-analysis of the deposited data

Results flagged for a closer look

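Among the 4 CSC arrays, the highest or lowest value was tested for a gap to the others that is large for its group, at the 95% level of Dixon's test, for 32 genes and clusters named in the text. Chance gives about 1 in 20 such gaps. There were 5, and 3 of them were annexin genes: ANXA5 was 10.88 on CSC array 4, ANXA6 was 6.64 on CSC array 1 and ANXA10 was 3.07 on CSC array 4. In each of these 3 the other CSC arrays shared a single value, 10.81, 7.15 and 3.17, so that any departure counts as a large gap. Without CSC array 1 the log2 fold change of ANXA6 was -0.15. SMPD1 was 6.32 on CSC array 3, with 5.73 to 5.78 on the others, and F3 was 6.44 on CSC array 4, with 6.95 to 6.98 on the others.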

How the results depend on the processing

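The count of annexin genes called was 0 under all alternatives, which the fold limit alone gave wherever it was kept. Same-numbered arrays did not deviate together (r = 0.0702, -0.0146 and 0.0484), and a replicate block gave 0 called clusters and 0 annexin genes. The median log2 fold change of the annexin genes was 0.05 to 0.15 with 1 array left out, lowest without DU145 array 2. Of all clusters, 286 passed (159 up in CSC, 127 down). The count was 450 with no fold limit, 957 at an unadjusted p with the fold limit kept, 48 at an adjusted p of at most 0.01, 430 (201 higher, 229 lower) after a further quantile normalization, 413 (192 higher, 221 lower) with equal medians, 495 with array weights, 43 by the unpaired t-test, 153 without CSC arrays 1 and 4, a choice made after seeing the data, and 56 to 279 with 1 array left out. It was 86 and 136 without CSC array 2 or 3, and 56, 59 and 129 without DU145 array 1, 2 or 3. The cause was not tested. Among 12 settings that recompute the fold change, 100 of 108 annexin values kept their sign and 8 did not. The other 6 settings leave it as it is. ANXA5 was -0.06 with equal medians and -0.08 to 0.11 with 1 array left out. ANXA10 was -0.07 with equal medians, -0.03 with array weights and -0.11 to 0.11 with 1 array left out. ANXA2P1 was -0.29 to 0.02 and ANXA2P3 -0.40 to 0.01 with 1 array left out, and ANXA2P3 was 0.01 with the block. SERPINE2 did not pass at the stricter adjusted p of 0.01, by the unpaired t-test (adjusted p = 0.0718) or with the block (0.0814). Besides ANXA10, the filter on dim clusters removed SERPINE2, THBD, SMPD1, SYT11, SYTL2, PLSCR2, GAS6, PLA2G4C, PLA2G10, PLA2G2D and ANXA2R, among others. Each annexin had 1 cluster of its own, so averaging clusters could not be tried. With 1 array left out, the pair tests cannot reach 0.05.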
